A study of Homo sapiens with 6 samples.

Results

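The tubulin genes of HaCaT keratinocytes were examined across 6 RNA-seq libraries. TUBB, a beta-tubulin gene, was chosen by its measured rise in these libraries, so its values are given as a description with no test. The other members were named as its alpha, beta and gamma relatives. Of the 10 genes named, 9 had a row in the table of 22152 genes, and all 9 passed the filter on low values, as did 14795 genes in all. TUBB3 was not analysed here. HaCaT is a spontaneously immortalised line of human epidermal keratinocytes. The cells were transfected with a synthetic negative control miRNA (NC mimic) or with a synthetic miR-21-3p mimic, each at 1 nM, and RNA taken 48 h later was sequenced, as polyadenylated RNA according to the labels. Each group held 3 biological replicates, and no untransfected cells are part of the comparison. The comparison asks which transcripts differ in keratinocytes when the passenger strand of miR-21 is supplied in excess.

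Microtubules are hollow filaments built from heterodimers of alpha- and beta-tubulin, each encoded by several genes whose products are called isotypes. Gamma-tubulin does not form the filament wall but sits in ring complexes that start new microtubules. In proliferating keratinocytes these filaments build the mitotic spindle and serve as tracks for transport, and cells are known to adjust the stability of tubulin mRNAs to the pool of unassembled tubulin.

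The deposited values were read counts per gene scaled by the authors for library depth, here called normalised read counts. Read counts, here called recovered reads, were estimated from them, to within the rounding of up to 0.5% for abundant genes, and came to between 24400000 and 28000000 per library. Group differences are given as log2 fold changes of miR-21-3p mimic against NC mimic on the log2(value + 1) scale. A gene was called at a limma adjusted p under 0.05 over all genes tested. Counts at an unadjusted p under 0.05 are given without the share of all genes at that threshold, so nothing is read from them. The libraries were unevenly spaced before any tubulin was considered. On the first principal component, which held 46.7% of the variance, NC mimic replicate 2 lay at -1.9, against -21.3 and -13.3 for NC mimic replicates 1 and 3. The miR-21-3p mimic libraries lay at 11.8, 6.9 and 17.8, so NC mimic replicate 2 was the control library nearest to them, and replicate 2 was the mimic library nearest to the controls.

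Promoters are shown for 3 members that were higher with the mimic, TUBB, TUBB4B and TUBA1C, and for TUBB6, whose values hardly differed, so that the sequence around their starts can be set beside the values. They come from RefSeq on GRCh38.p14, where all 9 measured members were matched by symbol. Each holds 250 bases before and 50 bases after a listed start, taken as the start nearest to that of the principal transcript. The start used lay 151 bases from the principal start in TUBB, 74 in TUBB4B, 175 in TUBA1C and 182 in TUBB6. Over all 9 members this distance ran from 0 (TUBA1B) to 244 bases (TUBA1A). Capitals mark CCAAT on either strand (CCAAT or ATTGG), the box known to bind NF-Y, and TATAAA on either strand (TATAAA or TTTATA). The TUBB window lies at chr6:30720102-30720401 on the plus strand, that of TUBB4B at chr9:137241037-137241336 on the plus strand, that of TUBA1C at chr12:49264832-49265131 on the plus strand, and that of TUBB6 at chr18:12307991-12308290 on the plus strand.
TUBB: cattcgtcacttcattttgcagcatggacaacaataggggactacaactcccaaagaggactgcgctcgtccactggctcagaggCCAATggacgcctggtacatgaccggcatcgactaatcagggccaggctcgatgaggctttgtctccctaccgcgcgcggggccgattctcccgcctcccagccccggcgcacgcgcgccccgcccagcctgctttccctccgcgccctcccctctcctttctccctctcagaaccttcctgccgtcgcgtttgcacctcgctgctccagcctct
TUBB4B: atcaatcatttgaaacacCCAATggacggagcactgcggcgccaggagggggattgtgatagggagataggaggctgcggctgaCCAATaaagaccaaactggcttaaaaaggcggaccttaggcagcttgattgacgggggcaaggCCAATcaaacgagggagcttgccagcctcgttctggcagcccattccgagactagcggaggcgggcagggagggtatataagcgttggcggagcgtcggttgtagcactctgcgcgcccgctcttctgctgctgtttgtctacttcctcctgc
TUBA1C: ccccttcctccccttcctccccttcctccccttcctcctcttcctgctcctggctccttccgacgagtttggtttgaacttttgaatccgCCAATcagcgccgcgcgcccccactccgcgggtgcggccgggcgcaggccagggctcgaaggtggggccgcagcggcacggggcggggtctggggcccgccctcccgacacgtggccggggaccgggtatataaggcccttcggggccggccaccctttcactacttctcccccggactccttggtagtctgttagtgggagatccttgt
TUBB6: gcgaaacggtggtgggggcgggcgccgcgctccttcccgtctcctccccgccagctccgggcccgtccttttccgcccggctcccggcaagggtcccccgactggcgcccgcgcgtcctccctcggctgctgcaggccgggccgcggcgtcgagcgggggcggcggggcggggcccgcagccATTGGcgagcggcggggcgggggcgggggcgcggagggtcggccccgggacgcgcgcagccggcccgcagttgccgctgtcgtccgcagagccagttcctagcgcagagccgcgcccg

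CCAAT was found in the promoters of 6 of 9 members and in 34.6% of all 35116 promoters in the table. TUBB4B held 3 copies, TUBA1A held 2, TUBB, TUBB6, TUBA1C and TUBG1 held 1 each, and TUBA1B, TUBA4A and TUBB2A held 0. At least 2 copies were present in 10.8% of all promoters. TATAAA was found in 1 of 9 members, TUBB2A, and in 11.5% of all promoters. Only these exact letters were counted, and the TATATAA in the printed TUBB4B and TUBA1C sequences is not marked. The GC box GGGCGG (or CCGCCC) was present in 7 of 9 members, with 6 copies in TUBB6 and 0 in TUBB4B and TUBA1A, and in 45.0% of all promoters. TTTGAA (or TTCAAA), the letters of the cell-cycle homology region known from G2 and M phase genes, occurred in 2 of 9 members, TUBB4B and TUBA1C, and in 15.2% of all promoters. The E2F-like letters TTTNNCGC (or GCGNNAAA) occurred in TUBB6 and TUBG1 and in 6.9% of all promoters. Of the members that passed the test, TUBB4B, TUBA1C and TUBG1 held CCAAT and TUBA4A did not. Of those that did not pass, TUBB6 and TUBA1A held it and TUBA1B and TUBB2A did not. Whether these letters bear on the values was not tested. These matches describe the letters only, and binding was not tested.

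Of the beta-tubulin genes, TUBB and TUBB4B, the most abundant beta-tubulin genes measured, were higher with the miR-21-3p mimic, whereas TUBB6 was nearly level. TUBB (ENSG00000196230, chr6:30720201-30725426 on GRCh38 in GENCODE v29) had 9600, 10500 and 9820 normalised reads in NC mimic replicates 1 to 3 and 13300, 12800 and 13800 in the mimic replicates. All 3 mimic libraries lay above all 3 control libraries, which is the pattern that TUBB was selected on. Its mean was 1.33 times that of the controls (9973 ± 469 and 13300 ± 500, SD, n = 3), a log2 difference of 0.42.

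TUBB4B (ENSG00000188229, chr9:137241213-137243707), a broadly expressed beta isotype, had 10500, 13300 and 11200 normalised reads with NC mimic and 15000, 14000 and 16800 with miR-21-3p mimic. The groups did not overlap, although NC mimic replicate 2 came close to the lowest mimic library. TUBB4B rose by a log2 fold change of 0.39 ± 0.09 (SE), with a limma adjusted p of 0.0243. This call was lost without NC mimic replicate 1 or 3 (adjusted p = 0.08 and 0.102 in limma) and without miR-21-3p mimic replicate 1 or 3 (adjusted p = 0.0629 and 0.0741), with fold changes from 0.32 to 0.40 in those limma fits.

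TUBB6 (ENSG00000176014, chr18:12307669-12344320) is a divergent beta isotype. Its values were 2120, 2060 and 2060 normalised reads in the controls and 2050, 2170 and 1990 with the mimic. The groups overlapped throughout. The log2 fold change was -0.01, with a 95% confidence interval from -0.11 to 0.10 (limma adjusted p = 0.935), and its sign turned when NC mimic replicate 1 or miR-21-3p mimic replicate 3 was left out (0.01 and 0.02).

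TUBB2A (ENSG00000137267, chr6:3153669-3157526), a beta isotype best known from neurons, was scarce. It had 54.2, 78.3 and 46.9 normalised reads with NC mimic and 63.2, 80.9 and 91.5 with miR-21-3p mimic. NC mimic replicate 2 lay within the range of the mimic libraries. The log2 fold change of 0.41 ± 0.20 (SE) did not pass the test (limma adjusted p = 0.2). Leaving out each library in turn moved it between 0.25 (without NC mimic replicate 3, limma adjusted p = 0.527) and 0.61 (without NC mimic replicate 2, limma adjusted p = 0.0268), and it passed in that last fit only. Its 95% confidence interval ran from -0.03 to 0.83, and its residual SD lay at percentile 93 among the 500 genes nearest in mean.

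**Figure D1:**
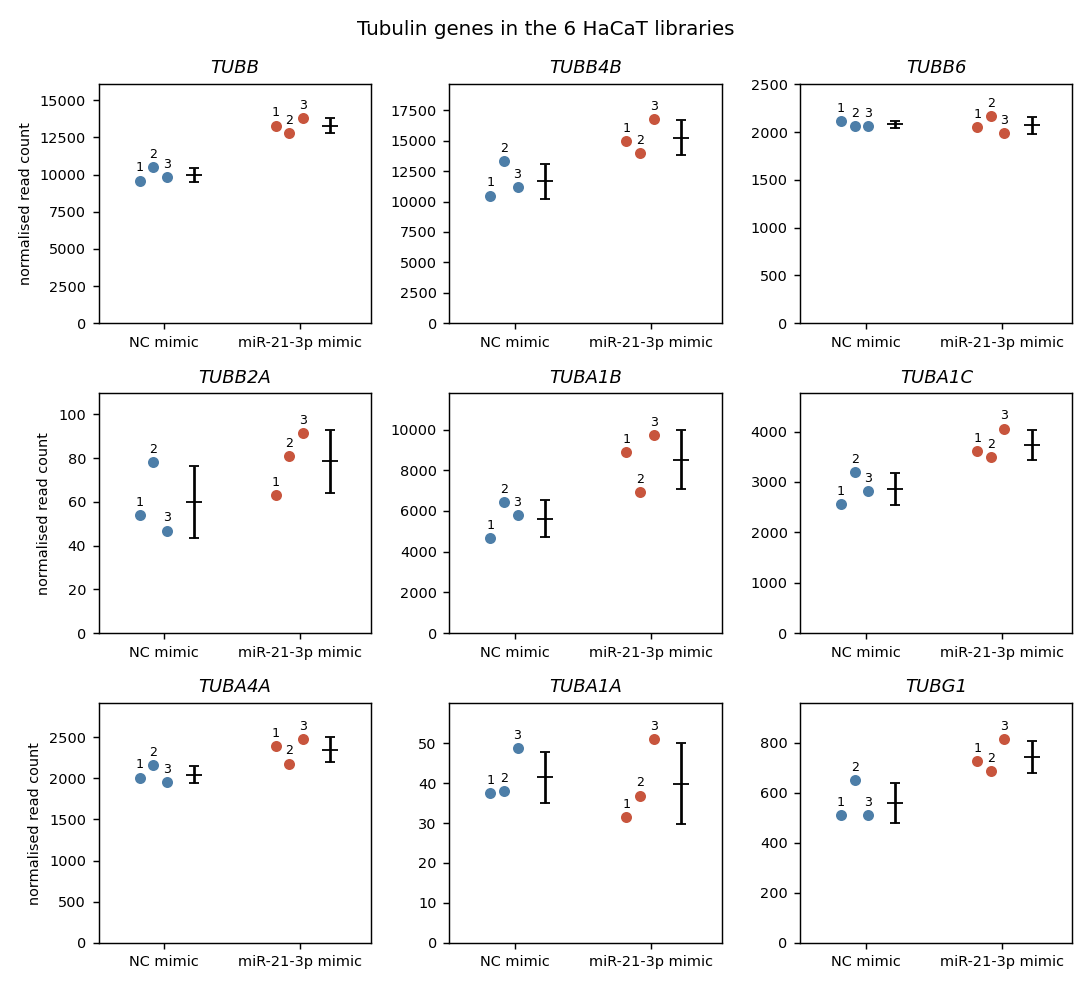
Normalised read counts (vertical axes, starting at 0) of the 9 measured tubulin genes in each library; points are libraries numbered by replicate, and the dash with bars is the group mean ± SD (n = 3). In TUBB, TUBB4B, TUBA1B, TUBA1C, TUBA4A and TUBG1 the 3 mimic libraries lie above the 3 control libraries, while TUBB6, TUBB2A and TUBA1A overlap.

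Among the alpha-tubulin genes, TUBA1C and TUBA4A rose with the mimic, TUBA1B was higher in every mimic library without passing the test, and TUBA1A was scarce in both groups. TUBA1B (ENSG00000123416, chr12:49127782-49131397), the most abundant alpha-tubulin gene measured, had 4650, 6450 and 5780 normalised reads with NC mimic and 8910, 6910 and 9740 with miR-21-3p mimic. The groups did not overlap, but mimic replicate 2 lay close to NC mimic replicate 2. Its mean was 1.51 times that of the controls and the log2 fold change was 0.60 ± 0.19 (SE), with a limma adjusted p of 0.114. The spread of TUBA1B within groups was wide for its level, with a residual SD at percentile 99.8 among the 500 genes nearest in mean. It passed the test in DESeq2 (adjusted p = 0.0267) and limma-voom (adjusted p = 0.0134) on the recovered reads, and in limma without mimic replicate 2 (adjusted p = 0.027), while over all settings tried the adjusted p ran from 0.0134 to 0.254.

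TUBA1C (ENSG00000167553, chr12:49188736-49274603), an alpha isotype whose protein differs little from that of TUBA1B, had 2570, 3200 and 2820 normalised reads in the controls and 3620, 3500 and 4060 with the mimic. Every mimic library lay above every control library. TUBA1C rose by 0.38 ± 0.08 (SE) on the log2 scale (limma adjusted p = 0.0143). The adjusted p was 0.0698 without NC mimic replicate 3, 0.0501 without mimic replicate 1 and 0.0542 without mimic replicate 3 in limma, each above the threshold.

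TUBA4A (ENSG00000127824, chr2:219249711-219278170) encodes an alpha isotype whose gene, unlike the TUBA1 genes, lacks the codon for a C-terminal tyrosine. It had 2010, 2160 and 1960 normalised reads with NC mimic and 2390, 2180 and 2480 with miR-21-3p mimic. Mimic replicate 2 and NC mimic replicate 2 were almost equal, and the groups did not overlap in these values but did at equal library totals (31.8 and 31.9 RPKM in these 2 libraries). TUBA4A rose by 0.20 ± 0.06 (SE) on the log2 scale (limma adjusted p = 0.0397, and 0.0478 at equal library totals, a scaling added after seeing the data). That call was lost in limma without NC mimic replicate 1 or 3 (adjusted p = 0.109 and 0.174) and without mimic replicate 1 or 3 (adjusted p = 0.154 and 0.16).

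TUBA1A (ENSG00000167552, chr12:49184796-49189324), the alpha isotype prominent in developing neurons, had 37.5, 38.1 and 48.8 normalised reads in the controls and 31.6, 36.9 and 51.1 with the mimic. The groups overlapped, and replicate 3 was the highest library in each. The log2 fold change was -0.07, with an interval from -0.53 to 0.38 (limma adjusted p = 0.852). Its sign turned without NC mimic replicate 3 (0.05) or without mimic replicate 1 (0.08). The TUBA1A and TUBA1C gene models overlap at their starts on opposite strands, and whether the authors counted reads by strand is not given in the sources used here, so reads of that stretch cannot be assigned with certainty.

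Gamma-tubulin is encoded by TUBG1 and TUBG2, and TUBG1 is the gene known to serve most dividing cells. TUBG1 (ENSG00000131462, chr17:42609676-42615234) had 511, 650 and 511 normalised reads with NC mimic and 725, 687 and 815 with miR-21-3p mimic. The groups did not overlap, and NC mimic replicate 2 stood out above the other controls. TUBG1 rose by 0.42 ± 0.10 (SE) on the log2 scale (limma adjusted p = 0.0196). The call was lost in limma without NC mimic replicate 1 or 3 (adjusted p = 0.0832 and 0.0969) and without mimic replicate 1 or 3 (adjusted p = 0.0709 and 0.0854). TUBG2 had 1350, 1100 and 1150 normalised reads in the controls and 1080, 1020 and 1050 with the mimic, so all mimic libraries lay below the controls. Its log2 fold change of -0.19 ± 0.07 (SE) did not pass the test (limma adjusted p = 0.103), and whether TUBG1 and TUBG2 differ in response was not tested.

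Of 13 other tubulin genes listed, 3 had a row, TUBG2 and the centriole-associated delta- and epsilon-tubulin genes TUBD1 and TUBE1. TUBD1 had 240, 255 and 245 normalised reads with NC mimic and 289, 222 and 280 with miR-21-3p mimic (log2 fold change 0.09, limma adjusted p = 0.634). TUBE1 had 495, 535 and 530 in the controls and 504, 445 and 513 with the mimic (log2 fold change -0.10, limma adjusted p = 0.441). In both genes the groups overlapped. Of these 3 genes, limma called 0 (11.1% of all genes tested were called), edgeR called 0, and 1, TUBG2, had an unadjusted p under 0.05. Without NC mimic replicate 2 limma called TUBG2 lower (log2 fold change -0.25, adjusted p = 0.0168), where 1387 of all genes were called lower. The other 10 tubulin genes of the list were not analysed here.

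Without TUBB, limma called 4 of 8 tubulin genes higher and 0 lower with the miR-21-3p mimic, where 11.1% of all genes tested were called in either direction, 6.25% higher and 4.85% lower. At an unadjusted p under 0.05, where the share of all genes is not given, the counts were 5 higher and 0 lower. EdgeR on the recovered reads called 4 higher and 0 lower. In 5 of 8 genes all 3 mimic libraries lay above all 3 control libraries, which held for 16.5% of all genes tested. At equal library totals this held in 4 of 8 genes, TUBA4A being lost, and for 16.4% of all genes tested. The median log2 fold change of the 8 genes was 0.39, against 0.004 for all genes. Because the family was proposed through the rise of TUBB in this same contrast, nothing is read from these counts. They moved with single libraries. The number called was 1 without NC mimic replicate 1, 5 without NC mimic replicate 2 and 0 without NC mimic replicate 3, where 620, 3055 and 257 of all genes were called in place of 1641. It was 0 without mimic replicate 1, 5 without mimic replicate 2 and 0 without mimic replicate 3. In those fits 308, 1623 and 399 of all genes were called. With any 1 library left out, 4 to 6 of the 8 genes had an unadjusted p under 0.05 in limma, again without a share of all genes. The median stayed between 0.30 and 0.48.

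**Figure D2:**
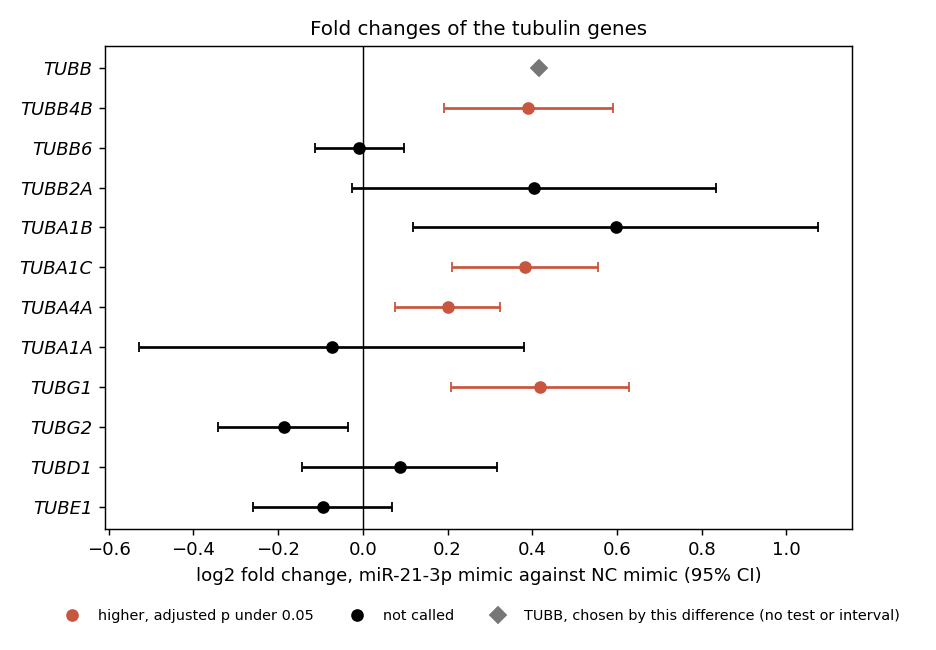
Log2 fold change of miR-21-3p mimic against NC mimic (horizontal axis) for 9 tubulin members and 3 other tubulin genes, from limma on 3 libraries per group, with 95% confidence intervals except for TUBB, a grey diamond, which was chosen by this difference. TUBB4B, TUBA1C, TUBA4A and TUBG1 passed the test, and the interval of TUBA1B (log2 fold change 0.60) is the widest among the abundant genes.

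Levels of the tubulin genes were compared with each other only as RPKM, the reads per kb of exon at equal library totals, using the union of exons in the basic annotation as the length. On this scale the means over the controls, with their SD (n = 3), were 281 ± 36.4 for TUBB4B, 136 ± 22.4 for TUBA1B and 117 ± 6.04 for TUBB. A lower tier was formed by TUBA1C at 32.5 ± 3.74, TUBA4A at 30.0 ± 1.7 and TUBB6 at 26.3 ± 0.452. TUBG1 followed at 13.6 ± 2.03, then TUBB2A at 1.48 ± 0.414 and TUBA1A at 0.632 ± 0.0938. In the controls the ranges of TUBA1B and TUBB overlapped, as did those of TUBA1C and TUBA4A, while all other neighbours in this order were separate. The union was longer than the principal transcript for TUBB (3359 against 2670 bases), TUBB6 (3116 against 2064) and TUBA1C (3462 against 3001). It was also longer for TUBA4A (2676 against 2162) and TUBA1A (2581 against 1915), and equal for the other measured members. The order and the gaps between neighbours therefore depend on the length used, and other lengths were not tried. The order of the 9 genes was the same in the mimic group, with means of 368 ± 37.6 for TUBB4B, 207 ± 37.1 for TUBA1B and 156 ± 7.32 for TUBB.

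Summed as RPKM, the 4 alpha-tubulin genes came to 171.7, 226.0 and 200.3 in the controls and 293.6, 237.9 and 322.8 with the mimic. The 4 beta-tubulin genes came to 392.7, 473.3 and 409.1 in the controls and 546.3, 512.5 and 600.0 with the mimic. Neither sum overlapped between groups, and the ratio of the means was 1.43 for alpha and 1.3 for beta. As TUBB enters the beta sum and was chosen by its rise, neither sum was tested. Together the 8 genes took 0.124%, 0.15% and 0.132% of all normalised reads in the controls and 0.179%, 0.163% and 0.195% with the mimic. In bulk RNA, more cells with high tubulin mRNA and more tubulin mRNA per cell cannot be told apart.

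The make-up of each family was given as the share of each isotype. TUBB4B supplied 64.2%, 67.9% and 65.4% of beta-tubulin reads per kb in the controls and 66.3%, 65.2% and 68.1% with the mimic, and TUBB supplied 28.6%, 26.1% and 28.0%, then 28.7%, 29.1% and 27.3%. Both shares overlapped between groups. The TUBB6 share was 6.81%, 5.53% and 6.32% in the controls and 4.76%, 5.31% and 4.24% with the mimic, with no overlap. In the alpha family, TUBA1B supplied 65.5%, 69.4% and 69.4% in the controls and 73.7%, 69.8% and 73.9% with the mimic. The groups were separated there by a small gap between the upper controls and mimic replicate 2. TUBA4A made up between 14.1% and 17.2% in the controls and between 11.4% and 13.4% with the mimic, also without overlap, and the TUBA1C shares overlapped. The scarce TUBA1A made up 0.333%, 0.258% and 0.369% in the controls and 0.165%, 0.235% and 0.244% with the mimic, without overlap, and the TUBB2A shares overlapped. The shares of a family sum to 100%, so the share of an isotype depends on the others, TUBB among them, and TUBB6 itself was nearly level in reads. They also depend on the exon length used for each gene. The shares were not tested.

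**Figure D3:**
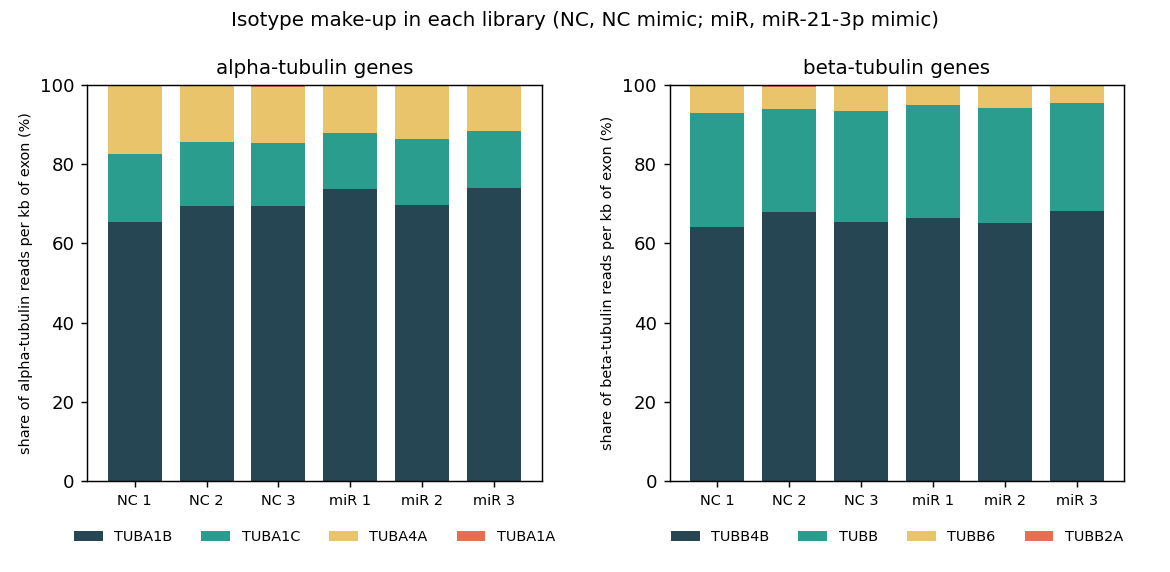
Share of each isotype (vertical axis, percent of reads per kb of exon) among the 4 alpha-tubulin genes (left) and the 4 beta-tubulin genes (right) in each of the 6 libraries. TUBA1B and TUBB4B fill the largest part of every bar, and the TUBB6 part is smaller in the mimic libraries (4.24% to 5.31%) than in the controls (5.53% to 6.81%), while TUBB6 itself was nearly level in reads.

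Tubulin genes share long identical stretches, which bears on how reads are assigned to them. Of all stretches of 75 bases in the principal TUBA1B transcript of GENCODE v29, 48.4% occur in transcripts of other genes, most often TUBA1A (26.2%). For TUBA1A the share was 27.1% and for TUBA1C 17.0%, each mostly with TUBA1B. TUBB2A shared 60.4%, mainly with TUBB2B, which was not analysed here, and TUBG1 shared 20.4% with TUBG2. The shares were smaller for TUBB (8.4%), TUBB4B (5.4%), TUBA4A (3.0%) and TUBB6 (0.0%). The values of TUBA1A, TUBA1B, TUBA1C, TUBB2A and TUBG1 are therefore less certain as single-gene values, and how reads with several matches were treated is not given in the sources used here.

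Of 7 tubulin pseudogene rows, 4 passed the filter and 1 was called, where 11.1% of all genes tested were called. TUBBP1, a transcribed processed pseudogene of TUBB, had 593, 621 and 602 normalised reads with NC mimic and 788, 763 and 776 with miR-21-3p mimic. The groups were well apart, and the log2 fold change was 0.36 ± 0.06 (SE; limma adjusted p = 0.0052). Of its 75-base stretches 13.5% occur in TUBB, and 26.4% of its 50-base stretches do, so reads of TUBB and TUBBP1 may not be fully separated and this row is no independent measurement. TUBA3FP had 550, 453 and 459 in the controls and 454, 465 and 445 with the mimic, and TUBBP5 had 168, 205 and 182 in the controls and 199 in each mimic library. Neither was called (limma adjusted p = 0.488 and 0.52).

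Within the groups, NC mimic replicate 2 was the highest control library for 7 of 9 tubulin genes, TUBB6 and TUBA1A being the others. Mimic replicate 2 was the lowest mimic library for 6 of 9, the others being TUBB2A, TUBB6 and TUBA1A. These shares were 36.9% and 37.1% over all genes tested, and 77.7% and 61.4% over the 924 genes called higher. The 10 proliferation markers listed (among them MKI67, a nuclear protein of cycling cells, and CDK1, the kinase that drives mitotic entry) showed the same libraries, with NC mimic replicate 2 highest among controls in 10 of 10 and mimic replicate 2 lowest in 7 of 10. Their summed normalised reads were 64620, 78610 and 70750 in the controls and 87830, 86810 and 93350 with the mimic, with MKI67 taking the most reads (not divided by length). Limma called 9 of 10 higher and 0 lower (6.25% and 4.85% of all genes tested), with a median log2 fold change of 0.37. All 10 were higher at an unadjusted p under 0.05, a threshold at which the share of all genes is not given. CDK1 had 3580, 4490 and 4110 normalised reads in the controls and 5310, 5500 and 5410 with the mimic (limma adjusted p = 0.0052). CCNA2, CCNB1 and MKI67 rose by 0.39, 0.44 and 0.38 on the log2 scale (limma adjusted p = 0.00552, 0.00914 and 0.00895). The number of markers called was 6 without NC mimic replicate 1, 10 without NC mimic replicate 2 and 2 without NC mimic replicate 3. It was 6 without mimic replicate 1, 10 without mimic replicate 2 and 4 without mimic replicate 3. Over all genes tested these fits called 620, 3055, 257, 308, 1623 and 399, in that order. The part of these differences in the tubulin values was not tested.

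**Figure D4:**
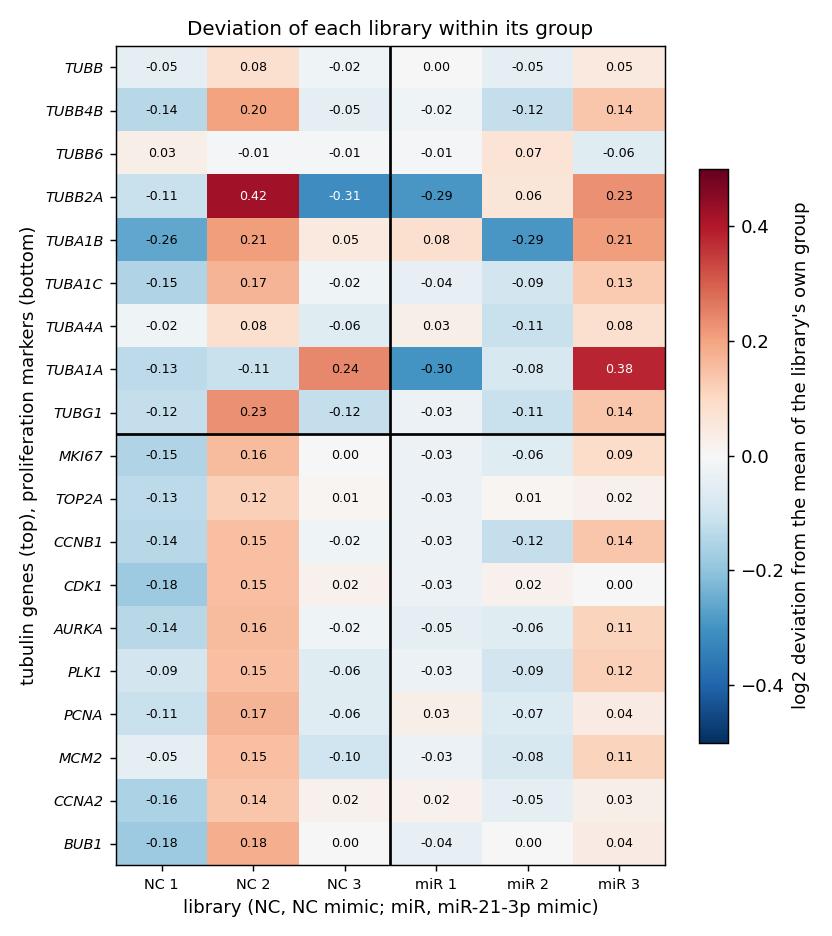
Log2 deviation of each library from the mean of its own group for 9 tubulin genes (top rows) and 10 proliferation markers (bottom rows); columns are the 6 libraries, and colour and number give the deviation. NC mimic replicate 2 is the highest control in 7 of 9 tubulin genes and 10 of 10 markers.

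Tubulin needs the prefoldin and chaperonin complexes to fold. All 16 genes of this list were tested, 6 rose and 0 fell, where 6.25% of all genes tested were called higher and 4.85% lower, and the median log2 fold change was 0.19 (all genes 0.004). CCT7, a chaperonin subunit, had 3300, 3790 and 3320 normalised reads with NC mimic and 4230, 4000 and 4630 with miR-21-3p mimic, a rise of 0.31 (limma adjusted p = 0.0138). CCT6A rose by 0.26, CCT3 by 0.24 and the prefoldin subunit PFDN2 by 0.34 (limma adjusted p = 0.018, 0.0211 and 0.0202). The mimic libraries all lay above the controls in 10 of the 16 genes, these 4 among them, and in 16.5% of all genes tested. The count was 0 without NC mimic replicate 1 or 3 or mimic replicate 1 or 3, and 11 without NC mimic replicate 2. Over all genes tested these fits called 620, 257, 308, 399 and 3055, in that order, in place of 1641. The tubulin cofactors, which join folded alpha- and beta-tubulin into dimers, were not called in limma or edgeR (0 of 6 tested, 1 higher at an unadjusted p under 0.05 in each, and a median of 0.09). None of the 3 autoregulation factors, which take part in the decay of tubulin mRNA when free tubulin is abundant, was called in limma or edgeR. They were SCAPER and CNOT11 with log2 fold changes of 0.11 and 0.10 and TTC5, the factor that recognises nascent tubulin chains. TTC5 had 708, 753 and 749 normalised reads in the controls and 658, 639 and 667 with the mimic, all below the controls (log2 fold change -0.17, limma adjusted p = 0.0891), and it was the only one of the 3 with an unadjusted p under 0.05.

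The gamma-tubulin ring complex anchors TUBG1, and augmin recruits it to spindle microtubules. Of 15 tested genes of both complexes, 3 rose and 0 fell (6.25% and 4.85% of all genes tested), and the median log2 fold change was 0.11. TUBGCP3, a ring subunit, had 1030, 1010 and 994 normalised reads in the controls and 1150, 1180 and 1210 with the mimic (limma adjusted p = 0.02). NEDD1, which targets the ring complex to centrosomes, rose by 0.21, and the small subunit MZT1 by 0.44 (limma adjusted p = 0.0409 and 0.0496). The count was 1 with upper-quartile scaling and 2 with DESeq2, without the filter on low values or with a pseudocount of 0.5. It was 2 without NC mimic replicate 1, 7 without NC mimic replicate 2 and 1 without mimic replicate 2. It was 0 without NC mimic replicate 3 or mimic replicate 1 or 3. Over all genes tested these fits called 620, 3055, 1623, 257, 308 and 399, in that order.

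Of 13 tested enzymes that modify tubulin after translation, 2 rose and 0 fell (6.25% and 4.85% of all genes tested), with a median log2 fold change of -0.03. A further count, 2 lower at an unadjusted p under 0.05, has no share of all genes beside it. TTL, the ligase that adds tyrosine back to alpha-tubulin, had 1240, 1250 and 1220 normalised reads with NC mimic and 1450, 1450 and 1480 with miR-21-3p mimic. It rose by 0.24 ± 0.05 (SE; limma adjusted p = 0.0109), with replicates closer together than in any tubulin gene that was called. Its relative TTLL12 rose by 0.19 (limma adjusted p = 0.0203). Both calls were lost without NC mimic replicate 3 or mimic replicate 1 or 3, when 0 genes of the list were called in limma. Over all genes tested these fits called 257, 308 and 399, in that order. Without NC mimic replicate 2 limma also called 1 gene lower, the deacetylase SIRT2 (log2 fold change -0.20, adjusted p = 0.0443). In that fit 1387 of all genes were called lower.

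Among 19 stabilisers and plus-end factors, 5 rose and 0 fell (6.25% and 4.85% of all genes tested), and the median log2 fold change was 0.04. CKAP5, a microtubule polymerase, had 7890, 8600 and 8030 normalised reads in the controls and 9690, 9720 and 9900 with the mimic, a rise of 0.26 (limma adjusted p = 0.00638). The spindle proteins TACC3, PRC1 and CKAP2 rose by 0.32, 0.31 and 0.25 (limma adjusted p = 0.0087, 0.0107 and 0.0141). The 14 genes of the list that were not called include MAP4, the main microtubule-associated protein of non-neuronal cells, with 4050, 3940 and 3980 normalised reads in the controls and 3880, 4190 and 4050 with the mimic, named here after its values were seen. The count was 2 without mimic replicate 1 or 3 and 0 without NC mimic replicate 3. Over all genes tested these fits called 308, 399 and 257, in that order. Without NC mimic replicate 2 limma also called 1 gene lower, TACC2 (log2 fold change -0.18, adjusted p = 0.0303). In that fit 1387 of all genes were called lower.

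Of 11 destabilisers and severing enzymes tested, 6 rose and 0 fell (6.25% and 4.85% of all genes tested), and the median log2 fold change was 0.16. The number that rose was 5 with the scalings of recovered reads, without the filter on low values, and with DESeq2, limma-voom or edgeR. STMN1, stathmin, which sequesters tubulin dimers, had 6930, 7980 and 7230 normalised reads with NC mimic and 8750, 9010 and 9010 with miR-21-3p mimic. The groups did not overlap, and STMN1 rose by 0.28 (limma adjusted p = 0.00848). The kinesins KIF2C and KIF18A, which shorten or restrain spindle microtubules, rose by 0.35 and 0.39, and STMN3 by 0.24 (limma adjusted p = 0.0105, 0.0141 and 0.0206). The count was 3 without NC mimic replicate 1 or mimic replicate 1, 2 without mimic replicate 3 and 0 without NC mimic replicate 3. Over all genes tested these fits called 620, 308, 399 and 257, in that order. Genes that stabilise and genes that destabilise microtubules were thus both among those that rose.

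**Figure D5:**
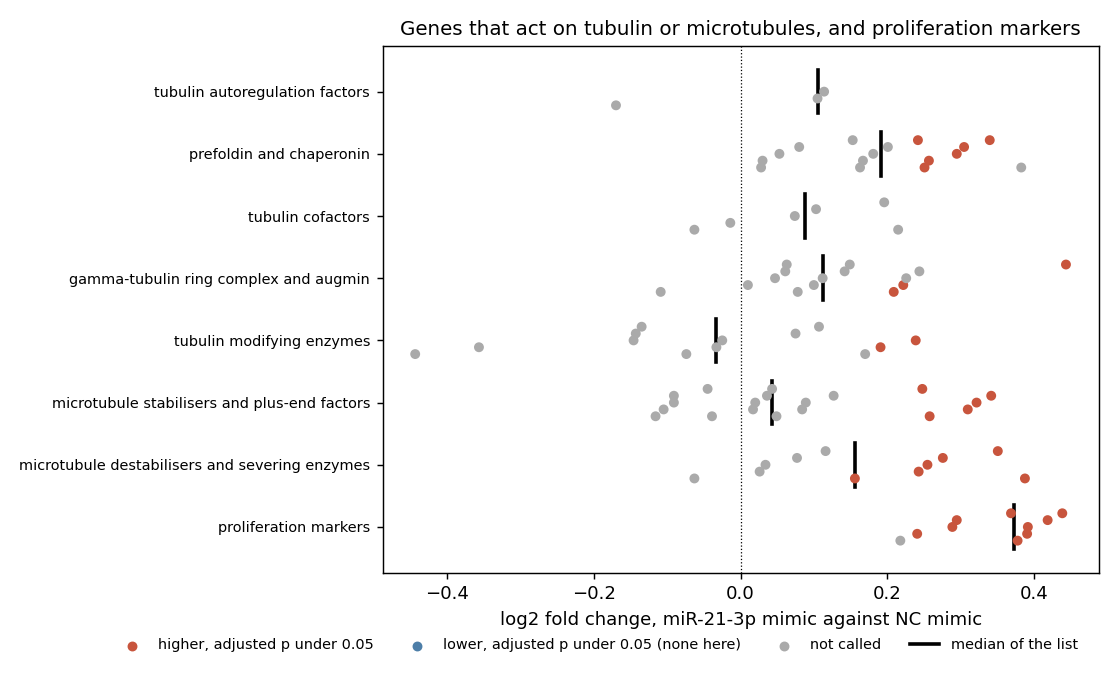
Log2 fold change of miR-21-3p mimic against NC mimic (horizontal axis) for each tested gene of the lists of genes that act on tubulin or microtubules and of the proliferation markers; a point is a gene, red where limma called it higher, grey where not called, and the black bar is the list's median. The median was 0.37 for proliferation markers, 0.19 for prefoldin and chaperonin genes and -0.03 for tubulin modifying enzymes, and no gene of these lists was called lower when all 6 libraries were used.

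The genes whose profile over the 6 libraries was most like that of TUBB were found by the root mean square difference of log2 CPM (reads at equal library totals) centred on each gene's mean, among 6490 other genes. They were GCLC (0.0241), TPI1 (0.0271), SRPR (0.0322), ACAT2 (0.0398) and PPP2R1B (0.04), where the median gene differed from TUBB by 0.215. GCLC had 2510, 2750 and 2460 normalised reads with NC mimic and 3390, 3240 and 3500 with miR-21-3p mimic. GCLC encodes the catalytic subunit of the first enzyme of glutathione synthesis, and TPI1 a glycolytic enzyme. No tubulin gene other than TUBB was eligible for this list, and a likeness over 6 libraries in 2 groups rests largely on the group difference.

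The libraries carried the markers of the labelled cell type. All 10 keratinocyte markers had a row, KRT5 took the most reads (not divided by length), and their sum was 369700, 346400 and 365300 normalised reads in the controls and 358200, 375400 and 345500 with the mimic. Limma called 1 of 10 higher, SFN, and 1 lower, ITGB4, where 11.1% of all genes tested were called in either direction. Of markers of other cell types, COL1A1 (1 of 6 fibroblast genes with a row) had 560, 390 and 478 normalised reads in the controls and 372, 378 and 364 with the mimic, and was not called (limma adjusted p = 0.0614). Only 1 gene each of the melanocyte, endothelial, immune and neuronal lists had a row, PMEL, VWF, CD14 and SYT1, with between 58.7 and 801 normalised reads, and none of these 4 was called in limma. CDH5, an endothelial gene outside that list and named here after its values were seen, had 477, 286 and 393 normalised reads in the controls and 165, 178 and 122 with the mimic and was called lower (limma adjusted p = 0.00584). The genes of these lists without a row were not analysed here, and the part of other cell types in the tubulin values was not tested.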

How the data were processed

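The 6 HaCaT libraries (3 NC mimic, 3 miR-21-3p mimic) were sequenced from polyadenylated RNA per the labels. The study's methods speak of small RNA libraries instead, and the labels were followed. The submitters' processing notes name bcl2fastq 2.18.12, cutadapt 1.15, TopHat2 2.1.1, featureCounts from Subread 1.5.2 and DESeq2. The genome build and annotation they used are not given in the sources used here. The signal deposited by the authors was gene read counts divided by a size factor for each library and rounded to 3 significant digits. Low values (up to 20 reads) were whole multiples of 1 read's worth in 100% of cases, within 0.1 read. The planned edgeR test assumed raw counts. Because the values were normalised, limma 3.58.1 (R 4.3.3) was fitted instead to log2(value + 1), with a mean-variance trend and robust variances, for 14795 genes with a value of at least 10 in at least 3 libraries. Rounding error is at most 0.5% of a value. P-values were adjusted by the Benjamini-Hochberg method over all genes tested. The code was tested on simulated data. Equal library totals, other pseudocounts and edgeR 4.0.16 were added after seeing the data. EdgeR on the recovered reads called 1685 genes, and DESeq2 1.42.0, limma-voom, other scalings and filters, a replicate block and leaving out each library were also tried.

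Named were all members, other tubulin genes that passed the filter, up to 4 called genes per direction and list by smallest adjusted p, the 3 tubulin pseudogenes with the most reads and the 5 genes most like TUBB. The autoregulation factors, MAP4, CDH5 and the cell type markers named fall outside this rule and were named after their values were seen. SIRT2 and TACC2 also fall outside it and were named for their calls without NC mimic replicate 2. Genes were matched by exact symbol. The members and lists were chosen with earlier results of these data known. Gene positions, exon lengths and shared stretches came from GENCODE v29 on GRCh38 and promoters from RefSeq on GRCh38.p14.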

Additional observations from a re-analysis of the deposited data

How the results depend on the processing

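Limma called 1641 genes, 924 higher and 717 lower with the miR-21-3p mimic. Other scalings, filters, pseudocounts and tools called between 1498 and 1685 genes, and none of them moved the median of all genes by more than 0.1. Upper-quartile scaling gave 809 higher and 815 lower. TUBB kept a log2 difference between 0.39 and 0.45 over 18 settings, and TUBB4B, TUBA1B, TUBA1C, TUBA4A, TUBG1 and TUBB2A stayed above 0 in each of them. The number of tubulin genes called without TUBB was 4 under each scaling, filter and pseudocount and with edgeR, and 5 with DESeq2 and limma-voom.

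With the replicate number as a replicate block, 1090 genes were called, 609 of them higher, and 3 tubulin genes, TUBA4A being lost (adjusted p = 0.0821 in limma). With the block 0 ring complex and augmin genes were called (3 without it), 1 modifying enzyme (2 without it) and 4 destabilisers (6 without it). The number is not evidence of pairing: deviations of same-numbered libraries correlated at 0, -0.2 and -0.16 across genes.

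Leaving out each library in turn gave from 257 genes (without NC mimic replicate 3) to 3055 genes (without NC mimic replicate 2), from 149 to 1668 higher and from 108 to 1387 lower. The number of tubulin genes called ranged from 0 to 5. The sign of the TUBB6 log2 fold change, from -0.042 to 0.02, and of that of TUBA1A, from -0.26 to 0.076, was not fixed. Fewer samples enter these fits, and the cause of the differences between libraries was not tested. With 3 libraries per group, calls near the threshold rest on single libraries, and TUBA1A and TUBB2A had under 100 normalised reads per library.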
